A study of Mus musculus with 6 samples.

Results

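The 8 genes described here encode transcription factors of bile duct and hepatocyte fate: Sox9, Sox4, Onecut1, Onecut2, Foxa1, Foxa2, Hnf4a and Hnf4g. They were chosen by symbol, with earlier results of these data known. All 8 were found among the 55401 genes of the deposited tables and passed the filter on low counts. Polyadenylated RNA was read from primary cholangiocytes, the lining cells of bile ducts. They came from PLD mice (a model of polycystic liver disease) and from WT (wild-type) mice, and both genotypes were sampled 3 months after tamoxifen induction with 3 libraries each. The labels do not name the targeted gene, the Cre driver or the strain, and they do not say whether a library came from 1 animal or several. Parenchymal cells were shaken off the perfused liver, the remaining biliary tree was digested, and cells that bound an antibody to the surface protein EpCAM were kept. The libraries held 15768561 to 16710548 counted reads.

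The bile ducts and the hepatocytes of the liver arise from a common precursor, the hepatoblast. SOX9 marks and helps to shape the ducts in mice, with SOX4 as its partner, and the ONECUT factors act upstream of the biliary programme. FOXA1 and FOXA2 are pioneer factors, which open closed chromatin in precursors of both lineages. HNF4A drives the hepatocyte programme, and its paralog HNF4G is best known from the gut epithelium.

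Onecut2, Hnf4a and Foxa2 were about 4-fold higher in PLD than in WT libraries, and Sox9 was 2.41-fold higher on the usual TMM library scale. Sox4 and Foxa1 were higher by 1.34-fold and 1.48-fold on that scale, and Onecut1 and Hnf4g did not pass the test. Thus 6 of the 8 genes were called higher in PLD and 0 lower by edgeR's quasi-likelihood test at an adjusted p under 0.05, where 27.0% of the 15334 genes tested were called higher and 28.4% lower (55.4% in either direction). PLD and WT libraries did not overlap for 7 of the 8 genes, all with PLD above WT, against 33.0% of all tested genes with PLD above WT, 33.2% with PLD below and 66.2% in either direction. The median log2 fold change was 0.92 over the 8 genes and 0.01 over all genes tested. None of the 6 higher calls was kept when reads were set against those of the epithelial genes Epcam, Cdh1 and Cldn7, a scale on which 2.13% of all genes were called higher and 85.6% lower. There Onecut2, Foxa2, Hnf4a and Sox9 did not pass, and Sox4, Foxa1, Hnf4g and Onecut1 were lower in PLD.

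The libraries also differed in markers of other cell types. All 15 endothelial markers were called lower in PLD, with summed levels of 513 to 900 CPM (read counts scaled to library size, TMM-normalised) in PLD and 6438 to 8503 CPM in WT. Of 15 fibroblast, stellate and smooth muscle markers 12 were lower and 1 higher (summed levels of 1861 to 4753 CPM in PLD and 8576 to 13802 CPM in WT), and 14 of 15 cholangiocyte markers were higher, the exception being Cftr (log2 fold change -2.24). Cholangiocyte markers summed to 33582 to 46424 CPM in PLD and 9677 to 14058 CPM in WT. Duct markers were thus present in both groups, and the WT libraries, although labelled as cholangiocytes, also held abundant endothelial and stromal RNA. Krt19, the keratin of the purity stain, had 3933 ± 348 CPM in PLD and 411 ± 130 CPM in WT, the endothelial gene Vwf 100.4 ± 40.6 CPM in PLD and 1689 ± 494 CPM in WT, and the collagen gene Col3a1 871 ± 636 CPM in PLD and 2871 ± 1178 CPM in WT. The Col3a1 difference did not pass (edgeR adjusted p = 0.0625). None of these 45 markers was at 0 in all libraries of a group. Immune markers numbered 3 higher and 4 lower of 12 tested (553 to 751 CPM in PLD, 438 to 484 CPM in WT), mesothelial markers 2 higher and 4 lower of 7 (777 to 1181 CPM in PLD, 121 to 170.3 CPM in WT, a sum that Msln dominated in PLD), and pancreas, gut and gland markers 2 higher and 1 lower of 4 (217 to 495 CPM in PLD, 31.5 to 89.4 CPM in WT). Msln (mesothelin) had 934 ± 210 CPM in PLD and 17.2 ± 1.41 CPM in WT, whereas Wt1, Lrrn4, Muc16 and Gpm6a were lower in PLD. The part of these cell types in the results on the 8 genes was not tested. In bulk RNA, fewer cells of a type and less RNA per cell cannot be told apart. Counts were therefore also set against the geometric mean of the reads of 3 epithelial genes, Epcam, Cdh1 (E-cadherin) and Cldn7 (claudin 7), which was 18120 to 20688 reads in PLD and 5245 to 8152 reads in WT. Epcam is itself the target of the antibody, and these 3 genes rose by 1.61, 1.36 and 1.57 on the log2 scale. On this epithelial scale the median gene moved by -1.55 on the log2 scale.

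**Figure D1:**
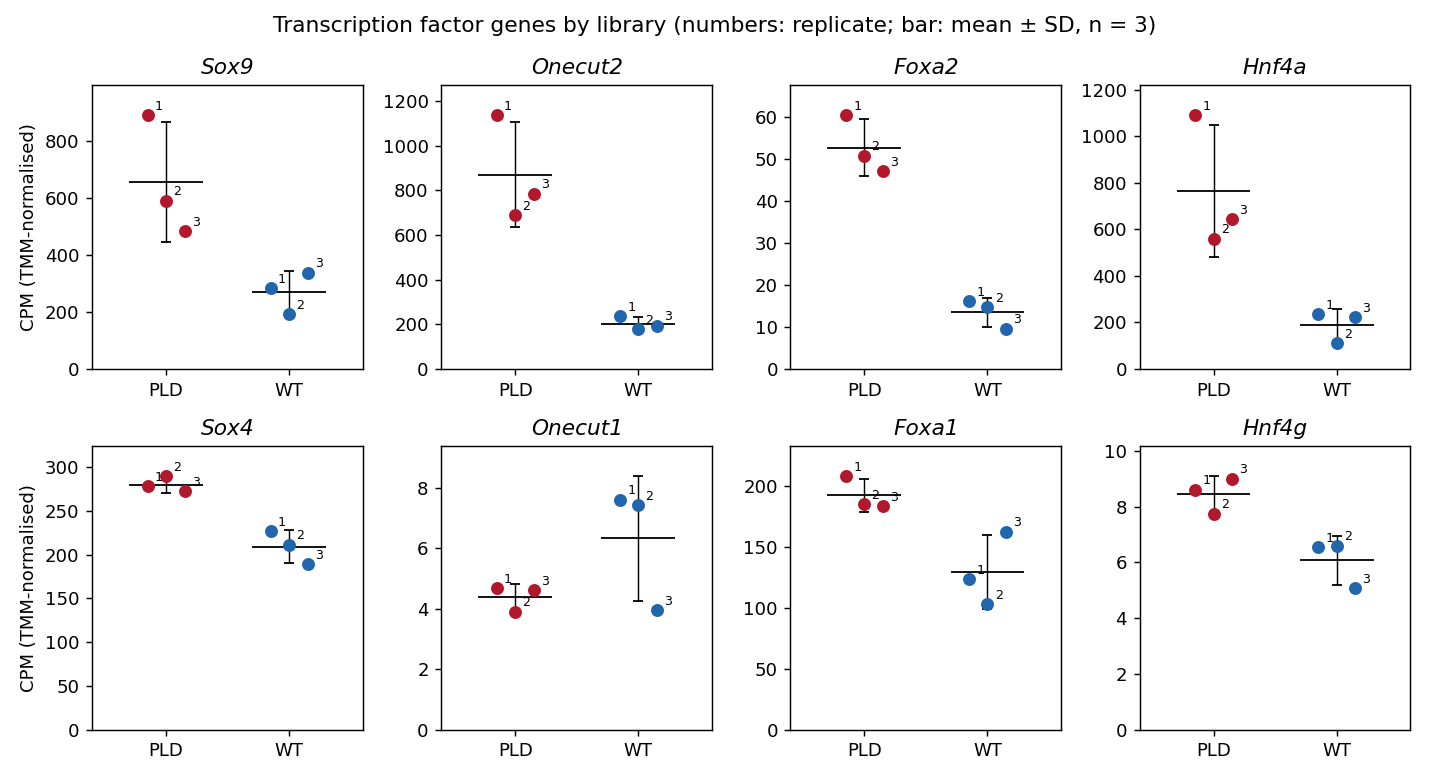
TMM-normalised CPM of each gene (vertical axis, starting at 0) in the 3 PLD libraries (red) and the 3 WT libraries (blue), with the replicate number beside each point and the mean ± SD as a bar. PLD and WT points are apart for every gene except Onecut1, where WT replicate 3 lies among the PLD libraries.

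SOX9, an HMG-box factor of duct and progenitor cells, is encoded on chromosome 11 (ENSMUSG00000000567.5, mm10, 112782224 to 112787760). It had 12908, 9666 and 8055 reads in PLD replicates 1 to 3, against 4811, 3248 and 5468 reads in the WT replicates. The groups did not overlap, and PLD replicate 1 was the highest library. The mean level was 654 ± 210 CPM in PLD and 271 ± 74.0 CPM in WT (SD, n = 3 each). The log2 fold change was 1.27 ± 0.28 (SE, edgeR adjusted p = 0.0064) and 0.99 without PLD replicate 1. Per 100 reads of the epithelial geometric mean, Sox9 had 62.4, 52.3 and 44.5 reads in PLD and 59.0, 61.9 and 69.4 reads in WT. On that scale the groups overlapped, and Sox9 differed by -0.26 ± 0.30 in log2 level, which did not pass (edgeR adjusted p = 0.407).

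SOX4, a related HMG-box factor, is encoded on chromosome 13 (ENSMUSG00000076431.4, 28948919 to 28953713). Its reads numbered 4037, 4753 and 4536 in PLD, against 3842, 3583 and 3066 in WT. Levels were 280 ± 8.96 CPM in PLD and 209 ± 18.7 CPM in WT, without overlap and with close replicates (log2 fold change 0.42 ± 0.11, edgeR adjusted p = 0.0112). Without WT replicate 3, which held the fewest Sox4 reads, the log2 fold change was 0.36 and the edgeR adjusted p was 0.0506. Per 100 epithelial reads Sox4 had 19.5, 25.7 and 25.0 in PLD and 47.1, 68.3 and 38.9 in WT, so that on this scale Sox4 was lower in PLD, with a change in log2 level of -1.13 ± 0.31 (edgeR adjusted p = 3.45e-04). This value lay above the -1.54 of the median gene on the same scale.

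The ratio of Sox9 to Sox4 reads per kb of gene length, which does not depend on library scaling, was 3.71, 2.36 and 2.06 in PLD and 1.45, 1.05 and 2.07 in WT. PLD replicate 3 and WT replicate 3 were nearly equal, and the groups overlapped. The difference of 0.84 in log2 ratio did not pass an exact two-sided permutation test (p = 0.2, adjusted p = 0.2 over 4 pairs, where 0.1 is the smallest p that 3 against 3 libraries allow).

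ONECUT2, a cut-homeodomain factor, is encoded on chromosome 18 (ENSMUSG00000045991.19, 64340020 to 64400987). It had 16479, 11284 and 13070 reads in PLD, against 4016, 3036 and 3127 reads in WT. Every PLD library was more than 2-fold above every WT library. The mean level was 869 ± 235 CPM in PLD and 203 ± 30.2 CPM in WT (log2 fold change 2.10 ± 0.21, edgeR adjusted p = 2.39e-04). Leaving out each library in turn gave 1.87 to 2.25. Per 100 epithelial reads it had 79.7, 61.1 and 72.1 in PLD and 49.3, 57.9 and 39.7 in WT. These values still did not overlap, but the log2 fold change of 0.54 ± 0.30 on that scale did not pass (edgeR adjusted p = 0.0839).

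ONECUT1, also known as HNF6, acts early in biliary and hepatocyte differentiation in mice and is encoded on chromosome 9 (ENSMUSG00000043013.10, 74861921 to 74891781). Onecut1 had 68, 64 and 77 reads in PLD, against 129, 126 and 64 reads in WT. WT replicates 1 and 2 were above all PLD libraries, and WT replicate 3 tied with the lowest of them. The log2 fold change was -0.52 ± 0.28 (edgeR adjusted p = 0.147) and -0.77 without WT replicate 3, where it passed (edgeR adjusted p = 0.0309). On the epithelial scale Onecut1 was lower in PLD, its log2 level differing by -2.11 ± 0.42 (edgeR adjusted p = 1.19e-06), with 0.329, 0.346 and 0.425 reads per 100 epithelial reads in PLD and 1.58, 2.40 and 0.812 in WT. The predicted gene Gm20649 shares 2171 of the 4113 exon bases of Onecut1 on the same strand and had 0 reads in all 6 libraries. No option to count reads that overlap more than 1 gene is named in the file headers, so Onecut1 reads may come from the other 1942 bases alone, which lowers its level. The length it is divided by does not alter its fold change. Whether reads from the shared bases would give another fold change cannot be told from gene counts.

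Onecut2 was the predominant of the pair in both groups. Its reads per kb were 61.4, 44.7 and 43.0 times those of Onecut1 in PLD and 7.89, 6.10 and 12.4 times in WT. With the unshared bases of Onecut1 as its length, these ratios were 20.3 to 29.0 in PLD and 2.88 to 5.84 in WT. The groups were apart, with a difference in log2 ratio of 2.54, the largest of the 4 pairs (exact two-sided permutation p = 0.1, adjusted p = 0.133). The third family gene, Onecut3, singled out after its values were seen, had 116, 78 and 59 reads in PLD and 44, 4 and 6 in WT (log2 fold change 2.33 ± 0.77, edgeR adjusted p = 0.0345). It remained far below Onecut2 per kb, at 1.14 ± 0.48 CPM per kb in PLD and 0.22 ± 0.28 CPM per kb in WT, against 53.6 ± 14.5 and 12.5 ± 1.86 CPM per kb for Onecut2.

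FOXA2, a forkhead factor, is encoded on chromosome 2 (ENSMUSG00000037025.11, 148042877 to 148046969). Foxa2 had 878, 833 and 785 reads in PLD, against 274, 250 and 156 reads in WT. The PLD libraries lay close together and the groups were far apart. The mean level was 52.8 ± 6.89 CPM in PLD and 13.5 ± 3.43 CPM in WT (log2 fold change 1.96 ± 0.20, edgeR adjusted p = 2.53e-04). Per 100 epithelial reads, Foxa2 had 4.24, 4.51 and 4.33 in PLD and 3.36, 4.77 and 1.98 in WT. On that scale the groups overlapped, and the log2 fold change of 0.38 ± 0.34 did not pass (edgeR adjusted p = 0.281).

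FOXA1, which binds the same forkhead motif, is encoded on chromosome 12 (ENSMUSG00000035451.7, 57540628 to 57546916). Foxa1 had 3027, 3043 and 3060 reads in PLD, against 2098, 1746 and 2637 reads in WT. The 3 PLD libraries were nearly equal, and WT replicate 3 was the closest to them. Levels were 193 ± 13.8 CPM in PLD and 130 ± 30.4 CPM in WT (log2 fold change 0.57 ± 0.17, edgeR adjusted p = 0.0231). The call was lost without PLD replicate 2 (edgeR adjusted p = 0.0509), WT replicate 1 (0.0620) or WT replicate 2 (0.0596), with log2 fold changes of 0.61, 0.54 and 0.43. On the epithelial scale Foxa1 was lower in PLD (log2 fold change -0.95 ± 0.31, edgeR adjusted p = 0.00278), with 14.6, 16.5 and 16.9 reads per 100 epithelial reads in PLD and 25.7, 33.3 and 33.5 in WT.

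Foxa1 was above Foxa2 per kb in every library. The ratio of Foxa2 to Foxa1 was 0.407, 0.384 and 0.360 in PLD and 0.183, 0.201 and 0.083 in WT. PLD ratios were all higher, by a difference of 1.40 in log2 ratio (exact two-sided permutation p = 0.1, adjusted p = 0.133), or 1.00 without WT replicate 3. Foxa3, the third family gene and a hepatocyte factor, had 15, 9 and 7 reads in PLD and 30, 40 and 41 in WT and was lower in PLD (log2 fold change -1.74 ± 0.38, edgeR adjusted p = 0.00673).

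Sequences before RefSeq starts of Foxa2 and Foxa1 are shown so that their letters can be read beside the values of the pair. RefSeq windows on GRCm38.p6 were searched on both strands for a FOXA core (TGTTTAC), an ONECUT core (ATCAAT), a SOX core (AACAAT) and an HNF4 site (CAAAGTCCA). Windows were found for Sox4, Onecut1, Foxa1, Foxa2 and Hnf4a. Capitals mark matches in the 250 bases before a start site, given 5′ to 3′ along the gene's strand. The first lies at chr2:148046970-148047219, minus strand, before the outermost of the 3 Foxa2 starts, and the second at chr12:57546112-57546361, minus strand. The Foxa1 window precedes a RefSeq start but lies inside the counted Foxa1 gene, which reaches 57546916. It is therefore not upstream of that whole gene.
Foxa2: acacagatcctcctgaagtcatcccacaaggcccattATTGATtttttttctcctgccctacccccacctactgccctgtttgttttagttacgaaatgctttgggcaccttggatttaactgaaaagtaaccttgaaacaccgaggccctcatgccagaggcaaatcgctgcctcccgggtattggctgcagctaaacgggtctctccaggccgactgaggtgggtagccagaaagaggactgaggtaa
Foxa1: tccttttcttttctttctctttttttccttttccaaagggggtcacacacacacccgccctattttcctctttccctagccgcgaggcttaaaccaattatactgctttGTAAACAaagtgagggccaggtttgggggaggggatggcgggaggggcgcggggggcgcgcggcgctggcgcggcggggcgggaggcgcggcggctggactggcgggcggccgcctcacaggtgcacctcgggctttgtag
The Foxa2 window shown held 1 ONECUT core, a motif found in 6.72% of all 32851 upstream windows. The windows before the other Foxa2 starts held no match to the letters searched, and neither did those of Sox4 and Onecut1. The Foxa1 window held 1 FOXA core, found in 3.17% of them. A match is a stretch of letters and was not shown to be bound.

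HNF4A, a nuclear receptor that is the principal regulator of hepatocyte genes, is encoded on chromosome 2 (ENSMUSG00000017950.16, 163506808 to 163572910). Hnf4a had 15810, 9174 and 10713 reads in PLD, against 3969, 1876 and 3610 reads in WT. The lowest PLD library was more than 2-fold above the highest WT library. The mean level was 764 ± 285 CPM in PLD and 189 ± 68.3 CPM in WT (log2 fold change 2.01 ± 0.35, edgeR adjusted p = 0.00235). Without PLD replicate 1, the highest library, the log2 fold change was 1.68. Per 100 epithelial reads Hnf4a had 76.4, 49.7 and 59.1 in PLD and 48.7, 35.8 and 45.8 in WT, with no overlap, and on that scale its log2 fold change of 0.51 ± 0.30 did not pass (edgeR adjusted p = 0.102).

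Hepatocyte markers, in contrast, were mostly lower: of 15 such markers 8 were lower and 2 higher in PLD, with a median log2 fold change of -1.48, and none was at 0 in all libraries of a group. Their summed level was 2252 to 6365 CPM in PLD and 1892 to 3174 CPM in WT, a sum in which Alb (albumin), at 3968 ± 2318 CPM in PLD and 1575 ± 430 CPM in WT, was the largest term and did not pass (edgeR adjusted p = 0.0537). Ahsg, the fetuin-A gene of hepatocytes, had 93, 65 and 84 reads in PLD and 387, 1967 and 1301 in WT. WT replicate 2 had the most Ahsg reads and the fewest Hnf4a reads. Other markers of the list differed in this. PLD replicate 1, the highest library for Hnf4a, had the most PLD reads of Fga (2526, 640 and 668 in PLD replicates 1 to 3). It had the fewest PLD reads of Alb (18921, 83441 and 91799). Ahsg was among the 8 lower markers. Called higher in PLD were Cyp2e1 (345 ± 46.5 CPM in PLD, 98.5 ± 35.1 CPM in WT) and Ttr (206 ± 18.4 CPM in PLD, 128 ± 5.31 CPM in WT). The part of hepatocyte RNA in the Hnf4a result was not tested.

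Hnf4a has a pair of well-known promoters, P2 upstream, described in gut, pancreas and fetal liver, and P1 downstream, used in adult hepatocytes. Gene counts do not separate them, so reads from the 2 starts cannot be told apart. The windows before both RefSeq starts are shown for that reason, P2 at chr2:163506607-163506856 and P1 at chr2:163546905-163547154, both on the plus strand.
Hnf4a P2: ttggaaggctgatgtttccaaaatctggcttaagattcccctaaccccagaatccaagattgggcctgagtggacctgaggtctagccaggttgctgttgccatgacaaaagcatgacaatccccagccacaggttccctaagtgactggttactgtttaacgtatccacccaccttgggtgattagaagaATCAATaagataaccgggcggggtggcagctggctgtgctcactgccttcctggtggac
Hnf4a P1: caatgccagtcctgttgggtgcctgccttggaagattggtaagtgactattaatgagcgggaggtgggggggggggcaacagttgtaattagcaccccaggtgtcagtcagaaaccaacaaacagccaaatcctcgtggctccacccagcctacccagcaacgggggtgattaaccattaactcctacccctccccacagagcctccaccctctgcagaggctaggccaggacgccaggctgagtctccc
The P2 window held 1 ONECUT core. The P1 window held no match to the letters searched. No match to the SOX core (9.42% of all windows) or the HNF4 site (0.384%) was present in the windows shown here.

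HNF4G is encoded on chromosome 3 (ENSMUSG00000017688.14, 3508030 to 3658052). Hnf4g had 125, 127 and 150 reads in PLD, against 111, 112 and 82 reads in WT. Levels were 8.45 ± 0.64 CPM in PLD and 6.07 ± 0.87 CPM in WT, without overlap, and the log2 fold change of 0.48 ± 0.18 missed the threshold (edgeR adjusted p = 0.0548) or just passed it with limma-voom (adjusted p = 0.0491). On the epithelial scale Hnf4g was lower in PLD (log2 fold change -1.09 ± 0.40, edgeR adjusted p = 0.00769). Hnf4a exceeded Hnf4g per kb by 68.9, 39.3 and 38.9 times in PLD and by 19.5, 9.12 and 24.0 times in WT. The difference in log2 ratio was 1.54, with the groups apart (exact two-sided permutation p = 0.1, adjusted p = 0.133).

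**Figure D2:**
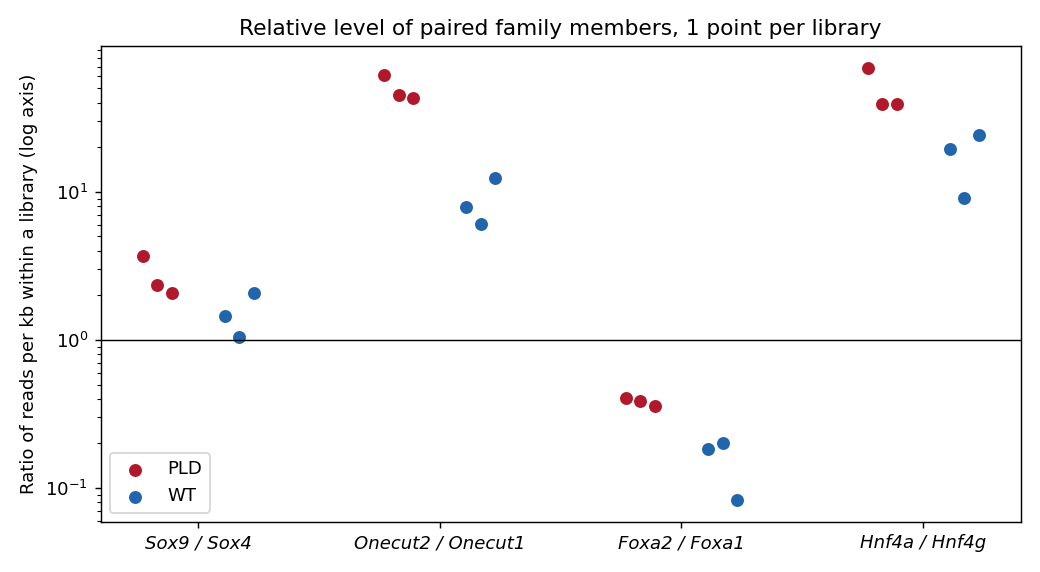
Ratio of reads per kb of gene length between paired family genes within each library (log axis), PLD in red left of WT in blue. PLD libraries lie above all WT libraries for Onecut2/Onecut1, Foxa2/Foxa1 and Hnf4a/Hnf4g, and Sox9/Sox4 overlaps.

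Per kb of gene length, Hnf4a (158 ± 58.9 CPM per kb) and Sox9 (158 ± 50.8) had the highest levels in PLD, and their ranges overlapped. They were followed by Sox4 (58.4 ± 1.87), Foxa1 (57.9 ± 4.14) and Onecut2 (53.6 ± 14.5), whose ranges also overlapped, then by Foxa2 (22.3 ± 2.91), Hnf4g (3.21 ± 0.24) and Onecut1 (1.07 ± 0.11). In WT the order began with Sox9 (65.6 ± 17.9 CPM per kb), Sox4 (43.6 ± 3.90), Hnf4a (39.2 ± 14.2) and Foxa1 (39.0 ± 9.15), each overlapping its neighbour. Onecut2 (12.5 ± 1.86), Foxa2 (5.70 ± 1.45), Hnf4g (2.31 ± 0.33) and Onecut1 (1.54 ± 0.50) came below, each apart from the next. Over its unshared bases Onecut1 reached 2.27 ± 0.22 CPM per kb in PLD and 3.26 ± 1.06 in WT, which puts its WT mean above that of Hnf4g.

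**Figure D3:**
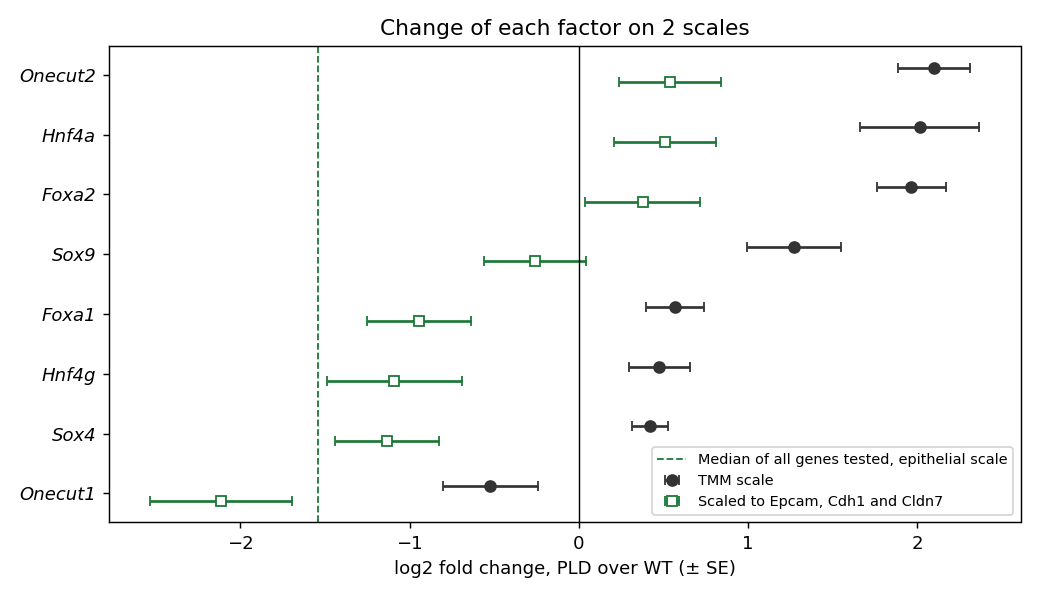
Log2 fold change of PLD over WT (horizontal axis, ± SE) of each gene on the TMM scale (filled circles) and on the epithelial scale (open squares), with the median of all genes tested on the epithelial scale as a dashed line at -1.54. Onecut2, Hnf4a and Foxa2 are above 0 on both scales, and Sox9, Foxa1, Hnf4g and Sox4 are on opposite sides of 0.

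The genes differed in how closely their libraries tracked one another. The distance used here is the root mean square difference of 6 mean-centred log2 CPM values, a description that the group difference largely sets. Sox4 and Hnf4g were the closest pair (0.11), followed by Onecut2 and Foxa2 (0.25), Sox4 and Foxa1 (0.27) and Onecut2 and Hnf4a (0.28). Onecut1 and Hnf4a were the farthest apart (1.38). In a pool of 9981 genes (average log2 CPM no lower than 3), those nearest to Onecut2 were Zfp185 (0.09), Ppfibp2 (0.09) and Gpd2 (0.09). Nearest to Hnf4a were Mpzl3 (0.09) and Plet1os (0.13). Foxa2 lay nearest to Sh3yl1 (0.14), Prr15l (0.16) and Mlph (0.17), and Sox9 to Rap2b (0.10), Slc7a5 (0.11) and the cell cycle inhibitor gene Cdkn1a (0.11). Sox4 was nearest to Mrpl18 (0.02), Uqcc3 (0.03) and Dxo (0.04), Foxa1 to Hr, Wipf2 (0.08 each) and Tnfaip8 (0.09), Onecut1 to Stx17 (0.18), Slc15a2 and Txndc11 (0.19 each), and Hnf4g to Haus6 (0.07), Arl10 (0.07) and Prim1 (0.08).

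Other transcription factors of the bile ducts went both ways, with 8 of 18 higher and 6 lower in PLD (median log2 fold change 0.08). Of all 15334 genes tested, 27.0% were called higher and 28.4% lower. This and the later list counts are to be read against those shares. The epithelial ETS factor gene Elf3 rose by 1.99 ± 0.23, the Krüppel-like factor gene Klf5 by 1.87 ± 0.25 and Gata6 by 0.81 ± 0.11. Gata4 fell by 2.28 ± 0.12 and Sox17, a factor of endothelium and of extrahepatic ducts, by 2.33 ± 0.26 on the log2 scale. All 15 endothelial markers were lower in the same libraries, and their part in the falls of Gata4 and Sox17 was not tested.

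Other hepatocyte transcription factors also split, with 6 higher and 5 lower among 11 tested and a median log2 fold change of 0.70. The nuclear receptor genes Nr1h4 (the bile acid receptor FXR) and Nr1i2 (PXR) rose by 1.52 ± 0.23 and 1.36 ± 0.26, and Cebpa by 0.87 ± 0.18. Prox1, a factor of hepatocytes and lymphatic endothelium, fell to 63.2 ± 13.9 CPM in PLD, against 194 ± 6.75 CPM in WT (log2 fold change -1.62 ± 0.16, edgeR adjusted p = 2.32e-04). Endothelial markers were lower in the same libraries, and their part in the fall of Prox1 was not tested. The remaining gene, the nuclear receptor gene Nr1i3 (CAR), had 1 read in all PLD libraries summed and 8 reads in the WT sum and was not tested.

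Hepatocyte genes known to depend on HNF4A did not share the direction of Hnf4a as a list. Of 15 tested, 4 were higher and 7 lower in PLD, with a median log2 fold change of -1.53. Apob, the structural protein of lipoproteins, had 643 ± 204 CPM in PLD and 68.0 ± 25.2 CPM in WT (log2 fold change 3.24 ± 0.34, edgeR adjusted p = 2.57e-04). Ambp, encoding a plasma protein precursor, rose by 1.87 ± 0.17 and Ttr, encoding transthyretin, by 0.69 ± 0.10. The bile acid enzyme gene Cyp8b1 had 0, 1 and 3 reads in PLD and 19, 45 and 37 in WT, and Ahsg fell by 3.83 ± 0.57 and Trf, encoding transferrin, by 1.74 ± 0.20. Hepatocyte markers, with a median of -1.48, were mostly lower in the same libraries, and their part in these falls was not tested. The marker list and the HNF4A list share Apoa1, Apoa2, Ttr, Tat and Ahsg. Their medians of -1.48 and -1.53 thus rest in part on the same genes.

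Brush border and gut genes that HNF4A and HNF4G are known to share in the mouse intestine had 4 of 10 tested genes higher and 1 lower (median log2 fold change 1.00). The lectin gene Lgals4 had 3349, 5091 and 5062 reads in PLD and 1425, 281 and 293 in WT (log2 fold change 2.83 ± 0.62, edgeR adjusted p = 0.00639), with WT replicate 1 far above the other WT libraries. The protocadherin gene Cdhr5 rose by 2.11 ± 0.18, and the tetraspanin-like genes Tm4sf4 and Tm4sf5 by 1.58 ± 0.16 and 3.20 ± 0.81. Fabp1, a fatty acid binding protein gene also abundant in hepatocytes, fell by 4.93 ± 0.75, and the brush border myosin gene Myo1a (log2 fold change 1.69 ± 0.85) did not pass. The gut homeobox gene Cdx1 had 0 reads in all 6 libraries.

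Among 16 bile duct genes tied to SOX9, SOX4 or ONECUT1 in development, 8 were higher and 2 lower (median log2 fold change 0.55). Krt7, Krt19, Spp1, Epcam, Cd24a and Prom1, all higher, are also among the cholangiocyte markers, of which 14 of 15 were higher. The 2 counts thus rest in part on the same genes, and the part of duct cell share in these rises was not tested. The duct keratin genes Krt7 and Krt19 rose by 3.68 ± 0.16 and 3.26 ± 0.25, and Prom1, encoding CD133, by 1.32 ± 0.20. Dcdc2a, a ciliary gene of ducts, fell to 36.2 ± 1.01 CPM in PLD, against 133 ± 21.6 CPM in WT (log2 fold change -1.87 ± 0.13, edgeR adjusted p = 6.21e-05), while Tgfbr2, a TGF-beta receptor gene, fell by 0.39. The Notch pathway genes Hes1 (log2 fold change -0.36), Jag1 (-0.28) and Notch2 (0.24) did not pass.

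**Figure D4:**
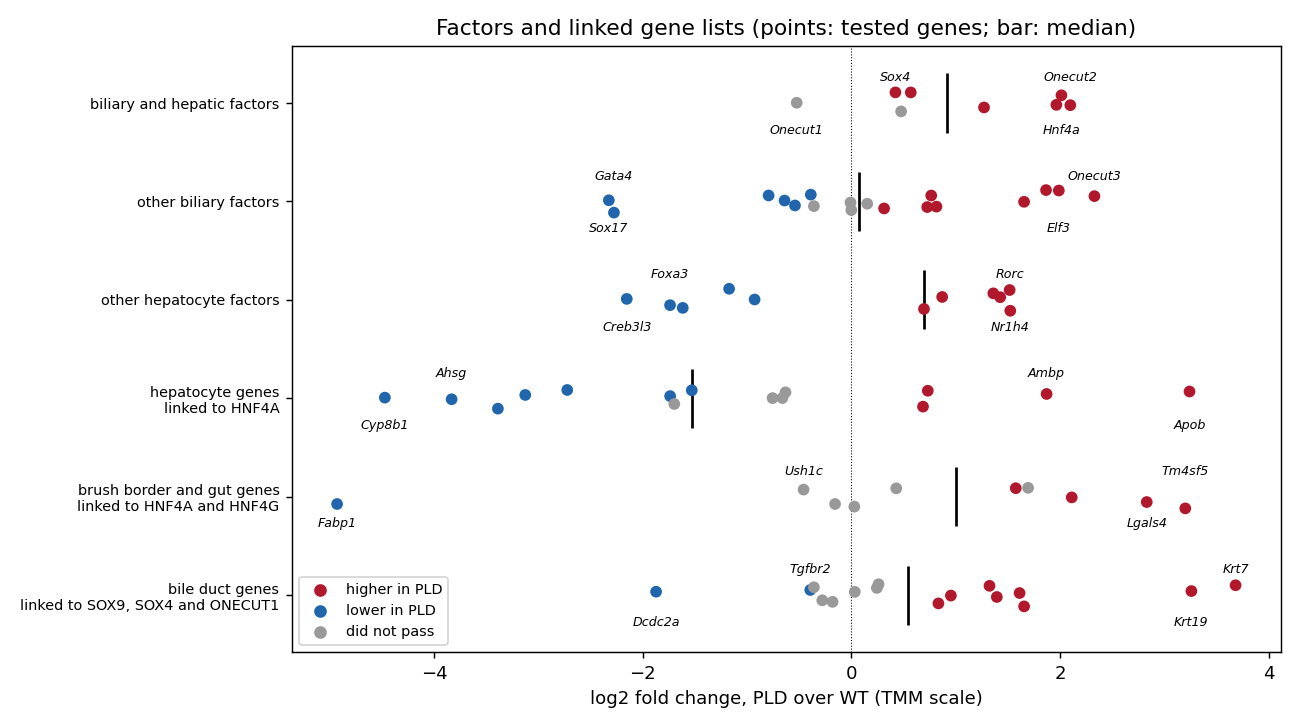
Log2 fold change of PLD over WT on the TMM scale (horizontal axis) for the tested genes of the 8 factors and of 5 related lists, with the median of each list as a black bar and names at the ends of each list. Red points were called higher in PLD, blue points lower and grey points did not pass, and the list of hepatocyte genes linked to HNF4A has a median of -1.53 beneath a median of 0.92 for the factors.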

How the data were processed

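Each library has 1 table of read counts per gene, deposited unnormalised. The authors made it with featureCounts 1.6.0 and GENCODE vM25 gene models of mm10, per the file headers. The submitters' processing notes list STAR 2.7.4a, SAMtools 1.12 and DESeq2 1.26.0 as well, with no settings. The headers name no option for strand or for reads that overlap several genes, and kit strandedness is not given in the sources used here. Symbols came from GENCODE vM21 names for 55141 of 55401 IDs.

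Counts were tested with edgeR 4.0.16 in R 4.3.3. filterByExpr kept 15334 genes, TMM factors were 0.922 to 1.04, and the quasi-likelihood test compared PLD with WT with Benjamini-Hochberg adjustment over all tested genes (threshold 0.05). SE is the size of the log2 fold change divided by the square root of F. DESeq2 1.42.0, limma-voom (limma 3.58.1), other scalings and filters, a length correction, a replicate block and leaving out libraries were alternatives. The scripts' functions were tested on simulated data. A floor of 3 counts equals 0.180 to 0.190 CPM, which covers counting error only. Since no label names separate animals, p-values reflect the spread of these samples alone, and that spread may be technical. Replicates differed by more than sampling noise (chi-square per degree of freedom 9.72 to 63.9). Replicate 1 stood somewhat apart in both groups: log2 CPM of PLD replicate 1 correlated at 0.976 and 0.973 with PLD replicates 2 and 3, which correlated at 0.991, and that of WT replicate 1 at 0.971 and 0.980 with WT replicates 2 and 3, which correlated at 0.988.

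The 8 genes and all lists were chosen with earlier results of these data known, and the promoter motifs after the windows were seen. Genes named from a list are the up to 6 with the smallest p, and other names were chosen after their values were seen. Some genes these rules pick are not reported here. Likeness names the 3 nearest genes that have no predicted-gene symbol (pool: average log2 CPM of 3 or more, prior count 2).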

Additional observations from a re-analysis of the deposited data

How the results depend on the processing

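Calls of Onecut2, Foxa2 and Hnf4a kept their direction and passed under DESeq2, limma-voom, RLE or upper-quartile factors, no filter, a 1 CPM filter, a robust fit, a gene length correction, the replicate block, a minimum log2 fold change of 1 and each library left out, but not on the epithelial scale. On the epithelial scale 327 genes were higher and 13128 lower, 0 of the 8 genes were higher and 4 lower, and log2 fold changes were -0.26 for Sox9, -1.13 for Sox4, -2.11 for Onecut1, 0.54 for Onecut2, -0.95 for Foxa1, 0.38 for Foxa2, 0.51 for Hnf4a and -1.09 for Hnf4g, since all genes are set against 3 genes that are higher in PLD. With a minimum log2 fold change of 1, 626 genes were higher and 1650 lower, and 3 of the 8 genes were higher and 0 lower. Sox4 (0.42) and Foxa1 (0.57), whose changes were below 1, could not pass by the construction of that test. Sox9 (1.27 ± 0.28) was above 1 and did not pass either (adjusted p = 0.294 in edgeR's test against that minimum). Apart from the epithelial scale, Hnf4g (0.48) passed with limma-voom, which calls 7 of the 8 genes higher, and with no other. Leaving out each library gave 0.43 to 0.77 for Foxa1, 0.36 to 0.48 for Sox4 and -0.77 to -0.37 for Onecut1, and 0 to 1 of the 8 genes lower. Replicate numbers are not said to pair libraries, and deviations of same-numbered libraries correlated at 0.16, 0.04 and 0.06; the libraries numbered 1 correlated best with their own number, those numbered 2 and 3 did not. With the replicate block 3920 genes were higher and 4242 lower, and no call on the 8 genes changed. The length of Onecut1 without shared bases, added after seeing the data, gave Onecut1 2.27 CPM per kb in PLD and 3.26 in WT. Depth limits Onecut1 and Hnf4g most, at 64 to 150 reads a library.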
